A study of Drosophila melanogaster with 11 samples.

Results

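10 cell cycle regulators of the early *Drosophila melanogaster* embryo were followed at the transcript level: *stg*, *twe*, *trbl*, *Z600*, *CycA*, *CycB*, *CycB3*, *CycE*, *grp* and *fzr*. They were picked by name from 17753 annotated genes for their known roles at the midblastula transition. All 10 were found in the count table and all 10 averaged over 10 counts per library, the filter on low counts, in both comparisons made here.

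RNA-seq of total RNA was available from 4 libraries of DomKD embryos and 3 libraries of Ctrl embryos, all at stage 5 (nuclear cycle 14), and from 4 libraries of unfertilized eggs of Ctrl mothers. DomKD embryos (genotype label t216) came from mothers in which a short hairpin RNA against *domino* (*dom*), a chromatin remodeler that deposits the histone variant H2A.Z, was driven in the germline by mat-alpha-Gal4. The hairpin is thus a maternal depletion by RNAi and not a mutation of the gene in the embryo. Ctrl embryos and Ctrl eggs (genotype label t180) came from the control line of the same hairpin collection, and eggs of DomKD mothers were not analysed here. Unfertilized eggs hold only transcripts deposited by the mother. The questions were which regulators differed between DomKD and Ctrl embryos, and which differed between Ctrl embryos and eggs.

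The early fly embryo divides by rapid, synchronous nuclear cycles that alternate replication and mitosis and run on proteins and transcripts deposited by the mother. At the midblastula transition these cycles stop, a long G2 pause opens, and further mitoses need the phosphatase String (Cdc25), which removes inhibitory phosphates from the mitotic kinase Cdk1. The pause depends on removal of the maternal Cdc25 proteins, on inhibitors of Cdk1 and Cdc25 made by the embryo, and on the replication checkpoint. The anaphase-promoting complex (APC/C) directs the destruction of the mitotic cyclins.

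The libraries held 11809453 to 15712506 counts on genes in DomKD embryos, 12642275 to 16310645 in Ctrl embryos and 15387133 to 17700171 in Ctrl eggs. The level of *dom* was 8.54 to 15.4 TPM in DomKD embryos and 270.2 to 318 TPM in Ctrl embryos (log2 fold change −4.66, standard error 0.18, adjusted p = 1.24e-06), so the labels held in all 7 embryo libraries. TPM, the transcript level used here, is the count of a gene divided by its exon length and scaled to the same total in every library, which lets genes of different length be compared. TPM and the log2 fold changes are relative to the other transcripts of a library, so rises and falls are not amounts per embryo or egg. Ctrl replicates 3 and 4 stood apart from the other embryo libraries in the RNA of the signal recognition particle (42.3 and 34.96 CPM, counts scaled to the library total, against 4.06 to 8.31 in the other 5 embryo libraries), and 2 genes in all were over 3-fold higher in both of them than in every other embryo library. Their tRNA was also higher (56.0 and 42.2 CPM, against 18.9 to 25.0 in the other 5). No DomKD library shared these traits, so they cannot be fully told apart from genotype. The summed level of 12 markers of later embryos was 2.43 to 5.76 TPM in DomKD embryos, 4.44 to 8.17 TPM in Ctrl embryos and 0.133 to 0.308 TPM in eggs. The summed level of 9 follicle cell markers was 0.283 to 4.14 TPM in DomKD embryos, 0.527 to 19.5 TPM in Ctrl embryos, where Ctrl replicate 3 held the highest value, and 0.0813 to 0.303 TPM in eggs, with *Vm26Aa*, *Vm32E* and *Cp38* at 0 in all 11 libraries. Nothing states that the replicates came from separate crosses, so the p-values measure the spread between these libraries, and in bulk RNA fewer cells with a transcript and less of it per cell cannot be told apart. The 3 Ctrl embryo libraries enter both comparisons.

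In DomKD against Ctrl embryos, 1 of the 10 regulators passed the test in the higher direction (*CycE*) and 0 passed in the lower direction (edgeR quasi-likelihood test, p-values adjusted by Benjamini-Hochberg over 7727 genes). Of all genes tested, 26.1% passed, 10.6% in the higher and 15.5% in the lower direction. The median log2 fold change of the 10 regulators was 0.014, against 0.0028 over all genes tested. In Ctrl embryos against eggs, 7 of 10 passed, where 85.8% of 7565 genes did: *twe*, *trbl*, *Z600* and *CycB3* were higher in Ctrl embryos (46.6% of all genes tested were) and *stg*, *grp* and *fzr* lower (39.2% were). The median of the 10 was −0.063, against 0.14 over all genes tested. In that comparison the libraries of the groups did not overlap for the same 7 regulators, against 84.9% of all genes tested (46.1% higher and 38.8% lower in Ctrl embryos). Between DomKD and Ctrl embryos they did not overlap for *CycE*, against 35.2% of all genes tested (16.5% higher and 18.7% lower in DomKD embryos).

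**Figure D1:**
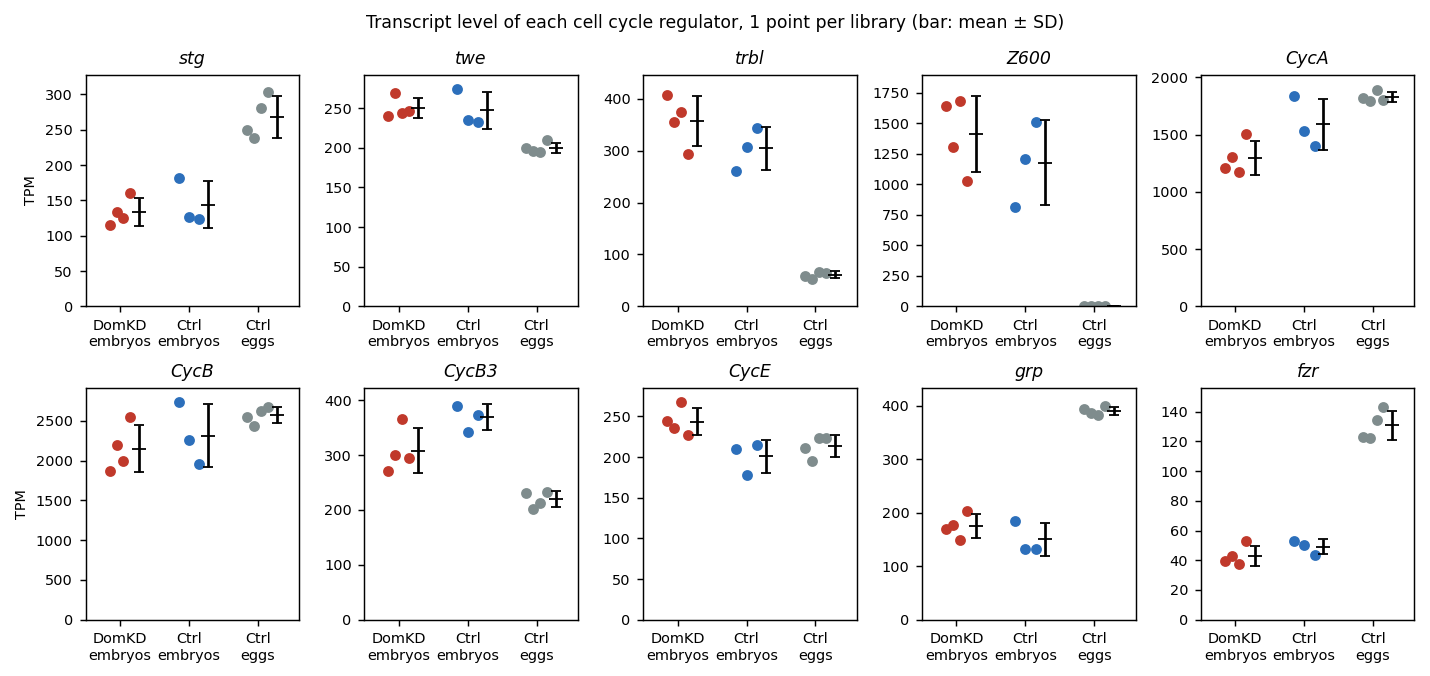
Level of each regulator in TPM, with 1 point per library, replicates in order from left to right, and the mean with its SD beside each group (4 DomKD, 3 Ctrl and 4 egg libraries). *Z600* was at 0 in all 4 egg libraries, *stg*, *grp* and *fzr* lay lower in both embryo groups than in eggs, and *CycE* was the regulator whose DomKD libraries (227 to 267 TPM) all lay above the Ctrl embryo libraries (178 to 215 TPM).

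*stg* (string, FBgn0003525) lies on chromosome 3R, positions 29251826 to 29255800 (dm6, minus strand), and encodes the Cdc25 whose expression by the embryo times the mitoses after the pause. It had 115.5, 133, 125 and 161 TPM in DomKD embryos, 182, 126 and 123 TPM in Ctrl embryos, and 250.2, 238, 280.3 and 303 TPM in eggs. Every embryo library thus lay below every egg library, while the DomKD and Ctrl embryo libraries overlapped, with the highest of all 7 in Ctrl replicate 2. The transcript of *stg* fell by 0.84 on the log2 scale in Ctrl embryos relative to eggs (standard error 0.12, adjusted p = 6.10e-05). In DomKD against Ctrl embryos its log2 fold change was −0.045 (standard error 0.13, adjusted p = 0.819), and the sign turned without Ctrl replicate 2 (0.11) and without DomKD replicate 1 (0.0068).

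*twe* (twine, FBgn0002673; chromosome 2L, positions 16259414 to 16261877, minus strand) encodes the other Cdc25 of the fly, which acts in meiosis and in the syncytial cycles. Its levels were 241, 269, 244 and 246 TPM in DomKD embryos, 274, 235 and 233 TPM in Ctrl embryos, and 199, 195, 195 and 209.6 TPM in eggs. All 7 embryo libraries lay above all 4 egg libraries. *twe* was the steadiest of the 10 regulators among embryo libraries, with a ratio of 1.18 between the highest and the lowest of the 7. It rose by 0.37 on the log2 scale in Ctrl embryos relative to eggs (standard error 0.055, adjusted p = 9.83e-05). Over the 15 alternative settings this value was 0.25 to 0.56 and passed each time. Between DomKD and Ctrl embryos the log2 fold change was 0.073 (standard error 0.064, adjusted p = 0.432). 98 nt of its exons overlap *EndoGI* on the opposite strand.

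The make-up of the Cdc25 transcripts was described by the share of *stg* in the summed TPM of *stg* and *twe*. This share was 34.7% ± 3.25 in DomKD embryos, 36.5% ± 2.99 in Ctrl embryos, and 57.2% ± 2.19 in eggs (mean ± SD over 4, 3 and 4 libraries). All 7 embryo libraries (32.4% to 39.9%) lay below all 4 egg libraries (54.9% to 59.1%). The difference of Ctrl embryos minus eggs was −20.7 percentage points (exact two-sided permutation test, p = 0.0571, the smallest value that 3 against 4 libraries allow, so 0.05 could not be reached). The difference of DomKD minus Ctrl embryos was −1.73 percentage points (exact two-sided permutation test, p = 0.343), and without Ctrl replicate 2 it was −0.015.

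**Figure D2:**
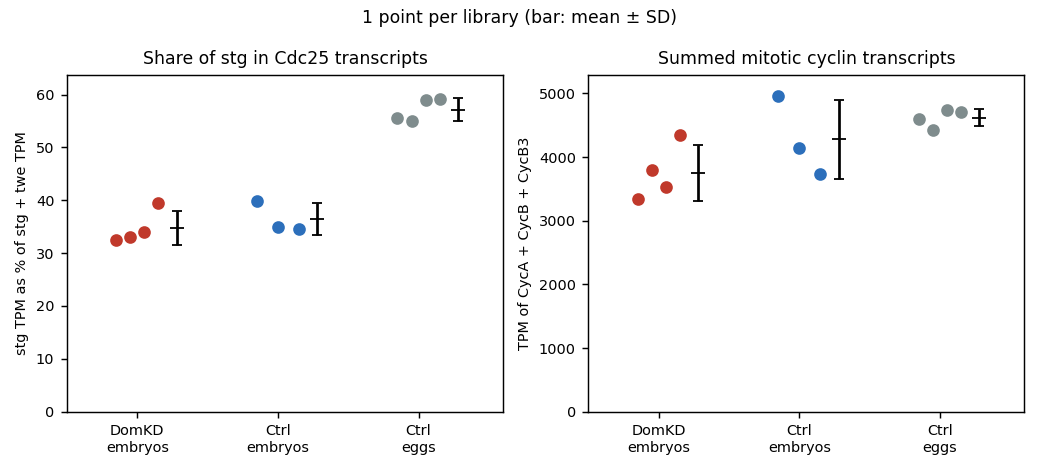
Left, *stg* as a percentage of the summed TPM of *stg* and *twe*; right, the summed TPM of *CycA*, *CycB* and *CycB3*; each with 1 point per library and the group mean with its SD. The *stg* share was 34.7% in DomKD embryos, 36.5% in Ctrl embryos and 57.2% in eggs, while the cyclin sums of Ctrl embryos overlapped those of DomKD embryos and those of eggs.

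*trbl* (tribbles, FBgn0028978; chromosome 3L, positions 20396288 to 20401609, minus strand) encodes a kinase-like protein that promotes the destruction of Cdc25. It had 408, 355, 374 and 294 TPM in DomKD embryos, 262, 308 and 344 TPM in Ctrl embryos, and 59.3, 51.9, 66.7 and 65.1 TPM in eggs. Each embryo library exceeded each egg library several-fold, and the embryo groups overlapped. The rise of *trbl* in Ctrl embryos relative to eggs was 2.39 on the log2 scale (standard error 0.12, adjusted p = 1.59e-08). The log2 fold change of DomKD against Ctrl embryos was 0.29 (standard error 0.14, adjusted p = 0.162).

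*Z600* (frühstart, FBgn0004052) is a single-exon gene of 453 nt on chromosome 3L, positions 15509061 to 15509513 (plus strand), whose small product inhibits Cdk1 with its cyclins. It had 1643, 1302, 1680.1 and 1025 TPM in DomKD embryos and 814, 1203 and 1509 TPM in Ctrl embryos. No read was counted in any of the 4 egg libraries, where 3 counts would have been 0.768 to 0.868 TPM. With that floor of 3 counts in each egg library, the lowest Ctrl embryo library (814 TPM) was at least 938-fold above eggs. The lowest DomKD library (1025 TPM) was at least 1181-fold above them. The means were 1176 TPM in Ctrl and 1412 TPM in DomKD embryos, and the adjusted p of Ctrl embryos against eggs was 1.87e-07. *Z600* was the most variable of the 10 regulators among embryo libraries, with a ratio of 2.06 between the highest and the lowest. The embryo groups overlapped, and the log2 fold change of DomKD against Ctrl embryos was 0.32 (standard error 0.24, adjusted p = 0.354). 69 nt of *Z600* overlap *gdl* and *gdl-ORF39* on the same strand.

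Other genes that the embryo switches on early give the setting of *trbl* and *Z600*. The summed level of 10 early zygotic markers was 2864 to 3638 TPM in DomKD embryos, 2148 to 2778 TPM in Ctrl embryos and 72.0 to 86.6 TPM in eggs, and it did not overlap between the embryo groups. Its lowest values were in DomKD replicate 4 (2864 TPM) among DomKD embryos and in Ctrl replicate 2 (2148 TPM) among Ctrl embryos, which were also the libraries with the lowest *trbl* and *Z600* of their groups. Of the 9 markers tested, 3 passed in the higher direction in DomKD against Ctrl embryos (*zen*, *bnk* and *kni*) and 0 in the lower, where 10.6% and 15.5% of all genes tested did. Taken singly, 1 of the 9 (*zen*) had no overlap between the embryo groups. Of all genes tested, 16.5% had none with DomKD embryos higher. *Sry-alpha* was at 0 in all 11 libraries and adds nothing to the sum. Whether its 0 reflects the transcript level or a mismatch of gene identifiers or counting was not tested. *bnk* lost its call without Ctrl replicate 2 or 4 or DomKD replicate 1, 2 or 3 (adjusted p of 0.0624 to 0.101), and *kni* without Ctrl replicate 2 or 3 or DomKD replicate 1, 2 or 3 (0.0586 to 0.105). Library scaling by library size alone also ended the calls of *bnk* (adjusted p = 0.0555) and *kni* (adjusted p = 0.0523). The part of this shift in the results for *trbl*, *Z600* and *CycE* was not tested. The transcript of the activator *zld* (zelda) had a log2 fold change of 0.19 in DomKD against Ctrl embryos (standard error 0.20, adjusted p = 0.502). When library scaling was taken from the genes that eggs do not hold at over 5 TPM, which moved the median of all genes by 0.21 on the log2 scale, *trbl* (0.49, adjusted p = 0.0156) and *Z600* (0.52, adjusted p = 0.0400) passed the test as well.

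Of the mitotic cyclins, the partners that activate Cdk1, *CycB* and *CycA* were among the most abundant transcripts of each group. By mean TPM *CycA* ranked 120th of all genes in DomKD embryos, 103rd in Ctrl embryos and 83rd in eggs. *CycB3* ranked lower, at 464th, 377th and 755th in the same groups. *CycB* (FBgn0000405; chromosome 2R, positions 22803521 to 22806948, minus strand) ranked 84th of all genes by mean TPM in DomKD embryos, 76th in Ctrl embryos and 35th in eggs. It had 1864, 2198, 1992 and 2548 TPM in DomKD embryos, 2734, 2262 and 1953 TPM in Ctrl embryos, and 2545, 2440.2, 2631 and 2677 TPM in eggs. The groups overlapped, and the spread was wider among embryo than among egg libraries. Its log2 fold change was −0.049 in DomKD against Ctrl embryos (standard error 0.11, adjusted p = 0.773) and −0.096 in Ctrl embryos against eggs (standard error 0.080, adjusted p = 0.279). Without Ctrl replicate 2, the library with the highest *CycB*, the value against eggs was −0.18 and passed (adjusted p = 0.0136), and that of DomKD against Ctrl embryos was 0.041. The value against eggs was 0.00043 without Ctrl replicate 4, and with no filter on low counts it was −0.21 and passed (adjusted p = 0.0107).

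*CycA* (FBgn0000404; chromosome 3L, positions 11826719 to 11833578, minus strand), the cyclin that is essential for mitosis in the fly, had 1206, 1304, 1170.1 and 1505 TPM in DomKD embryos, 1838, 1530.1 and 1405 TPM in Ctrl embryos, and 1822, 1790.2, 1891 and 1804 TPM in eggs. 3 of the 4 DomKD libraries lay below all Ctrl embryo libraries, and DomKD replicate 4 lay between them. The log2 fold change of DomKD against Ctrl embryos was −0.24 (standard error 0.091, adjusted p = 0.0847), and it passed without DomKD replicate 4 (−0.30, adjusted p = 0.0340). In Ctrl embryos against eggs it was −0.14 (standard error 0.065, adjusted p = 0.0604), and it passed without Ctrl replicate 2 (−0.20, adjusted p = 0.00247), with RLE size factors (−0.16, adjusted p = 0.0358), by DESeq2 (−0.16, adjusted p = 0.0245) and with no filter on low counts (−0.26, adjusted p = 0.00113).

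*CycB3* (FBgn0015625; chromosome 3R, positions 24867934 to 24870816, minus strand) is a single-exon gene for a mitotic cyclin that promotes anaphase. It had 272, 301, 366 and 295 TPM in DomKD embryos, 390.5, 343 and 373 TPM in Ctrl embryos, and 230.4, 202, 214 and 233 TPM in eggs. All embryo libraries lay above all egg libraries, and DomKD replicate 3 was the DomKD library that reached into the range of Ctrl embryos. The rise in Ctrl embryos relative to eggs was 0.81 on the log2 scale (standard error 0.058, adjusted p = 3.06e-07). DomKD against Ctrl embryos gave −0.20 (standard error 0.092, adjusted p = 0.135), which passed without DomKD replicate 3 (−0.29, adjusted p = 0.0122).

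Summed over *CycA*, *CycB* and *CycB3*, the mitotic cyclins came to 3755 ± 438 TPM in DomKD embryos (SD, n = 4), 4276 ± 628 TPM in Ctrl embryos (SD, n = 3) and 4620.0 ± 139 TPM in eggs (SD, n = 4). Ctrl embryos overlapped both other groups, while all 4 DomKD libraries (3342 to 4348 TPM) lay below all 4 egg libraries (4433 to 4736 TPM), a pair of groups that was not tested. The difference was −521 TPM for DomKD minus Ctrl embryos and −344 TPM for Ctrl embryos minus eggs (exact two-sided permutation test, p = 0.343 for each). Ctrl replicate 2 alone held 4962 TPM, and without it the difference of DomKD minus Ctrl embryos was −178 TPM and that of Ctrl embryos minus eggs −687 TPM. Without Ctrl replicate 4 the difference of DomKD minus Ctrl embryos was −794 TPM and that of Ctrl embryos minus eggs −71.1 TPM.

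*CycE* (FBgn0010382; chromosome 2L, positions 15727581 to 15748150, minus strand), the partner of Cdk2 that drives entry into S phase, was the regulator that passed the test on knockdown. It had 244, 236, 267 and 227 TPM in DomKD embryos, 209.7, 178 and 215 TPM in Ctrl embryos, and 212, 195, 223 and 224 TPM in eggs. All 4 DomKD libraries lay above all 3 Ctrl embryo libraries and also above all 4 egg libraries, while Ctrl embryos and eggs overlapped. The transcript rose in DomKD embryos relative to Ctrl embryos by 0.34 on the log2 scale (standard error 0.083, adjusted p = 0.0152). The call was lost without Ctrl replicate 3, the library with the least *CycE* (0.28, adjusted p = 0.0630). It was also lost when the replicate number entered the fit as a block (0.32, adjusted p = 0.0746). With Ctrl replicate 2 as the only Ctrl library the log2 fold change was 0.35. The spread in that fit rests on the DomKD libraries, so it lends the call no support. In Ctrl embryos against eggs the log2 fold change was −0.029 (standard error 0.067, adjusted p = 0.698), with 0.064 when Ctrl replicate 3 was left out. Under upper-quartile factors it was 0.16 and passed (adjusted p = 0.0401). Exons of *CycE* overlap *asRNA:CR44866* over 150 nt and *lncRNA:CR44974* over 98 nt on the opposite strand, and how the counting treated reads in such overlaps is not given in the sources used here.

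*grp* (grapes, FBgn0261278; chromosome 2L, positions 16680054 to 16699926, plus strand) encodes Chk1, the checkpoint kinase that slows the last syncytial cycles. It had 170.0, 177, 148 and 203 TPM in DomKD embryos, 185, 133 and 132 TPM in Ctrl embryos, and 394, 387, 383 and 399 TPM in eggs. Egg libraries lay within a narrow range above all embryo libraries. *grp* fell by 1.33 on the log2 scale in Ctrl embryos relative to eggs (standard error 0.090, adjusted p = 1.95e-07). DomKD against Ctrl embryos gave 0.28 (standard error 0.12, adjusted p = 0.106), and this passed without Ctrl replicate 2 (0.41, adjusted p = 0.0247). Its exons overlap *squ* over 223 nt on the same strand and *asRNA:CR44975* over 143 nt on the opposite strand.

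*fzr* (fizzy-related, FBgn0262699; chromosome X, positions 4667290 to 4679537, minus strand) encodes the Cdh1-type activator of the APC/C, which keeps cyclins low in G1. It was the least abundant of the 10 regulators in both embryo groups, with 39.3, 43.0, 37.6 and 52.6 TPM in DomKD embryos, 53.1, 50.6 and 43.4 TPM in Ctrl embryos, and 123, 122, 134 and 143 TPM in eggs. Embryo and egg libraries were far apart, and the embryo groups overlapped. *fzr* fell by 1.36 on the log2 scale in Ctrl embryos relative to eggs (standard error 0.083, adjusted p = 9.09e-08). The log2 fold change of DomKD against Ctrl embryos was −0.13 (standard error 0.11, adjusted p = 0.434).

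**Figure D3:**
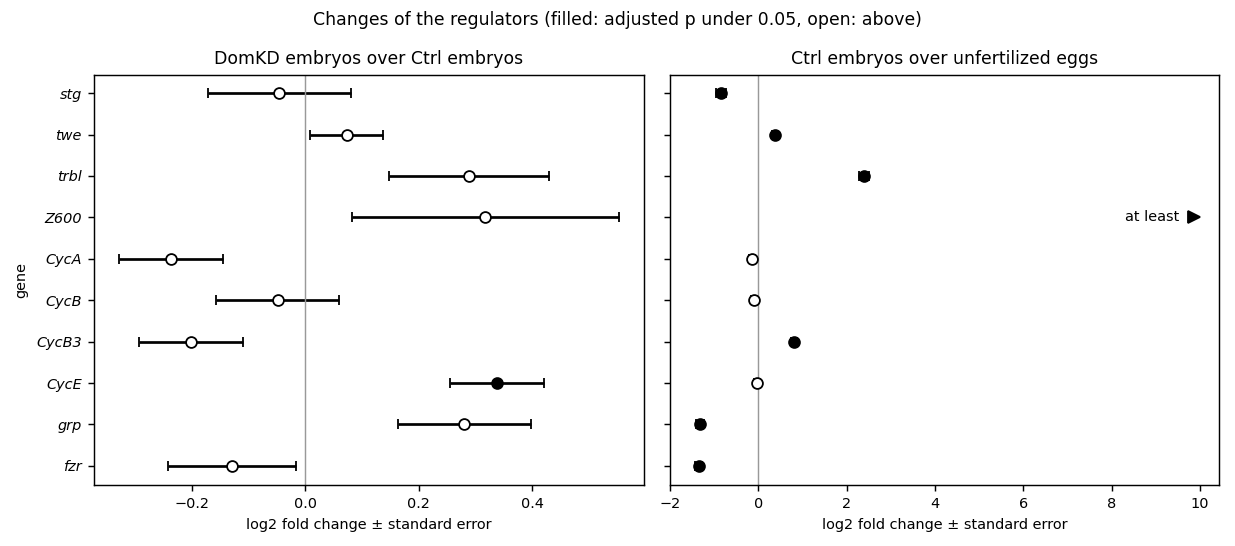
Log2 fold change of each regulator with its standard error, for DomKD over Ctrl embryos (left) and Ctrl embryos over unfertilized eggs (right), filled where the adjusted p was under 0.05. The arrow for *Z600* marks the lower bound of 938-fold on the log2 scale. The x axes differ, since the DomKD values lay between −0.24 and 0.34 and those against eggs reached 2.39 for *trbl* and −1.36 for *fzr*.

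The order of the regulators by mean TPM differed between embryos and eggs. In DomKD embryos it was *CycB*, *Z600*, *CycA*, *trbl*, *CycB3*, *twe*, *CycE*, *grp*, *stg* and *fzr*, and the neighbours whose libraries overlapped were *Z600* with *CycA*, *trbl* with *CycB3*, *twe* with *CycE* and *grp* with *stg*. In Ctrl embryos it was *CycB*, *CycA*, *Z600*, *CycB3*, *trbl*, *twe*, *CycE*, *grp*, *stg* and *fzr*, with overlap of *CycA* with *Z600*, *CycB3* with *trbl*, *trbl* with *twe*, *CycE* with *grp* and *grp* with *stg*. In eggs it was *CycB*, *CycA*, *grp*, *stg*, *CycB3*, *CycE*, *twe*, *fzr*, *trbl* and *Z600*, where only *CycB3* with *CycE* and *CycE* with *twe* overlapped. *grp* and *stg* thus stood just above *fzr* in both embryo groups and just below *CycA* in eggs. 9 of the 10, all but *Z600*, exceeded 5 TPM in 3 or more egg libraries and so counted as maternally deposited, as did 6336 of all genes.

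The regulators did not vary in step among the 7 embryo libraries. DomKD replicate 4 ranked 2nd for *stg*, *CycB* and *fzr*, 1st for *grp*, and 6th for *trbl* and *Z600*. Ctrl replicate 2 held the highest level of *stg*, *twe*, *CycA*, *CycB*, *CycB3* and *fzr* and the lowest of *trbl* and *Z600*. In DomKD replicate 1 the deviation from the embryo mean, on the log2 scale, was −0.26 for *stg*, −0.24 for *CycA*, 0.28 for *trbl* and 0.33 for *Z600*. It was 0.40 for *stg*, 0.37 for *CycA*, −0.36 for *trbl* and −0.69 for *Z600* in Ctrl replicate 2. For each of these 4 genes the range among DomKD libraries was wider than the difference between the DomKD and Ctrl means. The summed level of 6 maternal transcripts listed as cleared was 2403 TPM in DomKD replicate 4 and 1887 to 2279.7 TPM in the other DomKD libraries, and 2253 TPM in Ctrl replicate 2 and 1709 and 1799 TPM in the other Ctrl embryo libraries. Their part in the variation of the regulators was not tested.

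**Figure D4:**
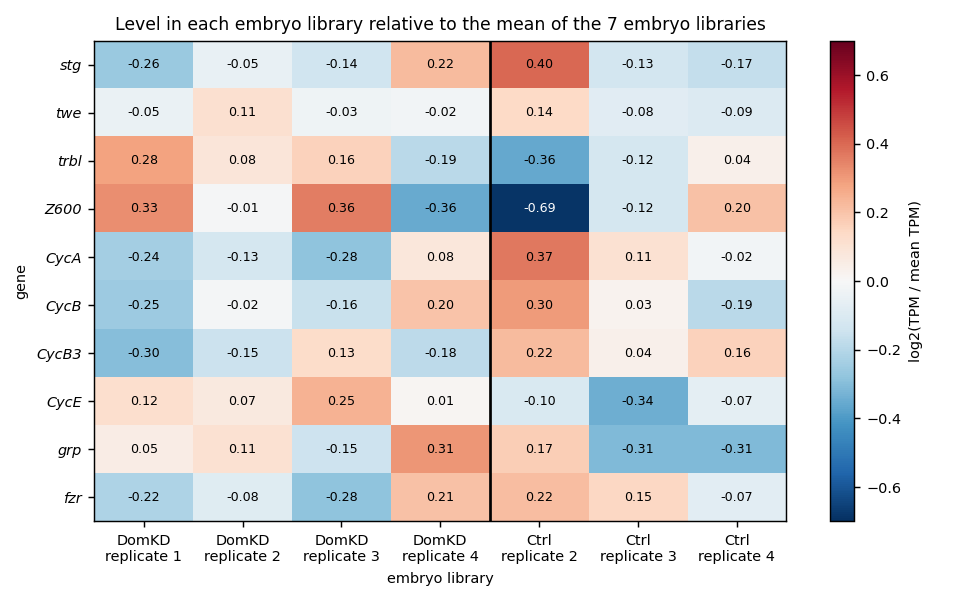
Log2 ratio of each regulator's TPM to its mean over the 7 embryo libraries, with DomKD replicates on the left of the line and Ctrl replicates on the right. Ctrl replicate 2 held the extremes in both directions, 0.40 for *stg* and −0.69 for *Z600*, and DomKD replicates 1 and 3 ran the opposite way for the same genes.

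Genes with the most similar pattern were sought over the 11 libraries among 6745 genes averaging 50 counts or more, by the distance between profiles of log2 scaled counts (CPM), each centred on its own mean. For *stg* they were *HIPP1* (distance 0.23), *Hex-A* (0.25) and *Chpf* (0.25), and for *twe* they were *Tbce* (0.16), *tant* (0.17) and *MSBP* (0.17). *trbl* was nearest to *Bacc* (0.54), *Nin* (0.56) and *wech* (0.58). *Z600* was nearest to *CG14915* (0.44), *CG8960* (0.67) and *tld* (0.68), which like *Z600* had 0 TPM in all egg libraries. *CG14915* had 1766, 1397, 1690.0 and 1124 TPM in DomKD embryos and 910.4, 1263 and 1678 TPM in Ctrl embryos, and so ranked the libraries within each group nearly as *Z600* did.

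The wider cell cycle machinery was described with 6 lists of genes, of which *lmgA* and *Rad1* were at 0 in all 11 libraries. Whether these zeros reflect transcript levels or a mismatch of gene identifiers or counting was not tested. In DomKD against Ctrl embryos, 2 of 13 Cdk genes and regulators of Cdks passed in the higher and 1 in the lower direction (median log2 fold change 0.10), 0 and 1 of 13 APC/C genes (median −0.055), and 3 and 4 of 13 genes of checkpoints and replication timing (median −0.016). The counts were 1 higher and 1 lower of 14 mitotic kinase and spindle checkpoint genes (median −0.026), 1 and 0 of the 3 genes of the PNG complex (median 0.34), and 2 and 1 of 7 genes of G1/S control (median −0.071). Over all genes tested 10.6% passed in the higher and 15.5% in the lower direction, with a median of 0.0028, and nothing particular to the lists is read from their counts.

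Among the genes that fell in DomKD relative to Ctrl embryos were *Rca1*, an inhibitor of the APC/C with Fzr (log2 fold change −1.34, adjusted p = 0.00430), and *E2f2*, the repressor among the fly E2F factors (−1.05, adjusted p = 0.000345). *Rca1* had 9.97, 9.58, 10.01 and 19.5 TPM in DomKD embryos and 42.9, 26.5 and 28.2 TPM in Ctrl embryos, with no overlap although DomKD replicate 4 stood apart. *E2f2* had 14.5 to 18.6 TPM in DomKD embryos and 31.1 to 37.7 TPM in Ctrl embryos, and its exons overlap *Mpp6* over 399 nt on the opposite strand. The DNA damage genes *nbs* (−1.10, adjusted p = 0.00326), *mei-41*, the fly ATR kinase upstream of Chk1 (−0.85, adjusted p = 0.00301), and *Rad9*, of the checkpoint clamp (−0.59, adjusted p = 0.0471), fell as well. *Rad9* lost its call when any 1 of the 7 libraries was left out (adjusted p of 0.0595 to 0.127). *Cks30A*, a Cdk1-binding subunit, fell by 0.53 (adjusted p = 0.00415) and *BubR1*, of the spindle checkpoint, by 0.30 (adjusted p = 0.00624). With library scaling from the genes not maternally deposited, the calls of *BubR1* (−0.088, adjusted p = 0.632), *Cks30A* (−0.32, adjusted p = 0.165), *mei-41* (−0.62, adjusted p = 0.0516) and *Rad9* (−0.37, adjusted p = 0.270) were lost.

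Among the genes that rose in DomKD relative to Ctrl embryos was *RnrL*, the large subunit of ribonucleotide reductase (0.58, adjusted p = 0.000377). *png*, the kinase of the PNG complex that controls translation after egg activation, rose by 0.78 (adjusted p = 0.00963). Others were *CycD* (0.34, adjusted p = 0.00617) and *Cdk7*, the Cdk-activating kinase (0.36, adjusted p = 0.0303). *endos*, an inhibitor of the phosphatase PP2A (0.44, adjusted p = 0.0420), and *Rbf*, the fly retinoblastoma protein (0.39, adjusted p = 0.0441), rose too. Of the checkpoint and replication timing list, *dup* (0.29, adjusted p = 0.00970), *Rif1* (0.25, adjusted p = 0.0129) and *mre11* (0.19, adjusted p = 0.0433) rose. *Claspin* of that list fell (−0.44, adjusted p = 0.0310), and it and these risers were named after their values were seen. The calls of *dup*, *Rif1*, *mre11* and *Claspin* were not followed through the alternative settings. *RnrL* had 255 to 284 TPM in DomKD embryos and 167 to 206 TPM in Ctrl embryos. *Cdk7* lost its call without Ctrl replicate 3 or 4 or DomKD replicate 2 or 4 (adjusted p of 0.0639 to 0.102), and *Rbf* without the same libraries (0.0890 to 0.149). *endos* lost it without Ctrl replicate 3 or 4 or DomKD replicate 1, 2 or 4 (0.0671 to 0.137). With library size alone the calls of *Cdk7* (0.30, adjusted p = 0.0762), *Rbf* (0.33, adjusted p = 0.0967) and *endos* (0.39, adjusted p = 0.0844) were lost. A filter at a mean of 100 counts also ended those of *Rbf* (adjusted p = 0.0682) and *endos* (adjusted p = 0.0629).

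In Ctrl embryos against eggs, where 46.6% of all genes tested were higher and 39.2% lower, the counts were as follows. 4 of 13 Cdk genes and regulators of Cdks were higher and 8 lower (median −0.79), 2 and 9 of 13 APC/C genes (median −1.17), 5 and 7 of 13 genes of checkpoints and replication timing (median −0.38), 9 and 5 of 14 mitotic kinase and spindle checkpoint genes (median 0.18), 1 and 2 of the PNG complex (median −2.62), and 1 and 4 of 7 genes of G1/S control (median −1.59), beside a median of 0.14 over all genes tested. The deepest falls were in *cort*, the APC/C activator of female meiosis (−5.86, adjusted p = 3.28e-11), *png* (−4.19, adjusted p = 6.22e-11) and *CycJ*, a cyclin of the female germline (−4.07, adjusted p = 3.26e-10). *cort* had 1.39 to 1.94 TPM in Ctrl embryos and 95.1 to 109.8 TPM in eggs. The Cdk inhibitors *dap* (−3.11, adjusted p = 2.52e-09) and *rux* (−2.60, adjusted p = 7.15e-09) fell too, as did *gnu* (−2.62, adjusted p = 1.81e-09), while *plu*, the third gene of the PNG complex, rose (0.27, adjusted p = 0.0134). *plu* had 140.3 to 164 TPM in Ctrl embryos and 124 to 135 TPM in eggs, and its call was lost with no filter on low counts (0.15).

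The other genes named by the same rule were lower in Ctrl embryos than in eggs: *APC7* (−2.70, adjusted p = 2.42e-09) and *Rca1* (−2.46, adjusted p = 1.79e-08) of the APC/C list, *nbs* (−2.56, adjusted p = 7.57e-09), *mei-41* (−2.43, adjusted p = 1.70e-09) and *rad50* (−2.11, adjusted p = 7.84e-08) of the checkpoint list, and *endos* (−2.79, adjusted p = 1.25e-09), *Mps1* (−1.97, adjusted p = 7.88e-08) and *aurA* (−0.94, adjusted p = 7.91e-06) of the mitotic kinases. *E2f2* (−2.98, adjusted p = 1.90e-10), *RnrS* (−2.80, adjusted p = 1.36e-09) and *Rbf* (−2.30, adjusted p = 1.82e-09) were the G1/S genes with the largest differences. The summed level of 7 pole cell markers was 727 to 1006 TPM in DomKD embryos, 747 to 1025 TPM in Ctrl embryos and 3762 to 3976 TPM in eggs, and that of 6 maternal transcripts listed as cleared was 1887 to 2403 TPM in DomKD embryos, 1709 to 2253 TPM in Ctrl embryos and 7784 to 8210 TPM in eggs. *Hsp83* alone averaged 5185 TPM in eggs, and 3 of the 6 transcripts were lower, 1 was higher and 2 did not pass in Ctrl embryos against eggs. Their part in the differences between embryos and eggs was not tested.

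**Figure D5:**
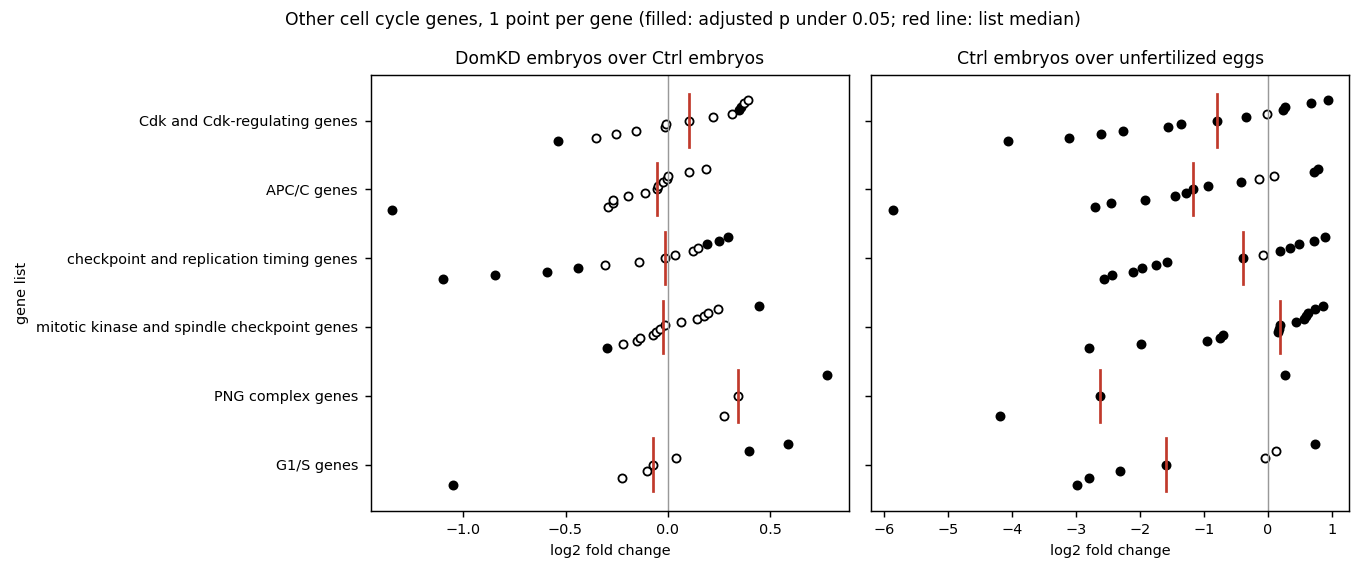
Log2 fold changes of the other cell cycle genes by list, with 1 point per gene, filled where the adjusted p was under 0.05, and the list median as a red line, for DomKD over Ctrl embryos (left) and Ctrl embryos over unfertilized eggs (right). Left, most points lay near 0 with *Rca1* at −1.34 and *E2f2* at −1.05; right, APC/C genes and G1/S genes had medians of −1.17 and −1.59, and mitotic kinase and spindle checkpoint genes a median of 0.18.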

How the data were processed

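Reads were trimmed and mapped to dm6 by the authors in snakePipes 2.0.2 (mRNA-seq workflow) and counted per gene of Ensembl release 96 (featureCounts is named in the submitters' processing notes). Deposited are raw counts, with no normalization, and the exon length of each gene. The aligner, the strand setting and the treatment of overlapping genes are not given in the sources used here. The table holds 1 column that matched no listed sample, and it was not used.

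TPM and CPM were computed here from the deposited counts. Tests used edgeR 4.0.16 in R 4.3.3 (quasi-likelihood F test, TMM scaling, Benjamini-Hochberg adjustment over all genes averaging 10 counts or more, threshold 0.05), fitted to the libraries compared. A standard error is the size of the log2 fold change divided by the square root of F. Values per library were compared by exact permutation. At this depth each regulator but *Z600* had at least 627 counts in every library, so the spread between libraries limits precision. Simulated counts had 198 of 7684 genes (DomKD against Ctrl) and 199 of 7545 genes (Ctrl embryos against eggs) changed 2-fold. The test recovered 97.5% and 97.0% of them, with 6.76% and 3.98% of calls false. In the measured data, 26.1% and 85.8% of genes tested passed. No smaller change was simulated, while the regulators' log2 fold changes in DomKD against Ctrl embryos lay between −0.24 and 0.34. The recovery rates therefore do not measure the power to detect changes of that size. Gene names and positions follow Ensembl release 115 (17625 of 17753 genes named).

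The regulators and all gene lists were chosen with earlier results of these data known. From each list the genes named were up to 3 per comparison with the largest fold change among those with adjusted p under 0.05 and a mean of at least 50 counts. Alternatives covered scaling, the tool (DESeq2 1.42.0), the filter, the libraries fitted, a block for the replicate number and each library left out. The fit with Ctrl replicate 2 as the only Ctrl library was added after the data were seen.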

Additional observations from a re-analysis of the deposited data

Results flagged for a closer look

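In each group of 4 libraries, a library was singled out when its gap to the nearest other exceeded Dixon's limit. This marked 5 of 95 groups tested, and chance alone gives 4.75. In DomKD replicate 4, *Rca1* stood at 19.5 TPM (others 9.58 to 10.01), *rad50* at 22.9 TPM (others 17.2 to 17.6) and *CycJ* at 10.7 TPM (others 7.72 to 8.10). In eggs, *Rad9* stood at 28.2 TPM in replicate 4 (others 25.4 to 25.8) and *RnrS* at 969 TPM in replicate 2 (others 1050.4 to 1062). None of the 10 regulators was marked in this way.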

How the results depend on the processing

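In DomKD against Ctrl embryos, the test called 2015 genes. A filter at a mean of 100 counts left 1201, a replicate block 1208, and Ctrl replicate 2 as the only Ctrl library 715, where the spread rests on the DomKD libraries. Leaving out each library gave 1292 (without Ctrl replicate 4) to 1816 (without DomKD replicate 1), with 1334 without DomKD replicate 2. The split was 820 higher and 1195 lower, but 551 and 1415 with library size alone, and 976 and 652 with factors from genes not maternally deposited, which moved the median of all genes by 0.21. Regulators called were 1 (*CycE*), 2 with library size alone (*CycB3* lower), 3 with the factors from non-maternal genes (*trbl*, *Z600*), 3 with all 11 libraries in the fit (*CycA* lower, *grp* higher), 0 under the replicate block, 0 with Ctrl replicate 2 only, and 0 to 2 with a library left out. *CycE* stayed called in 14 of 16 alternatives besides that last fit (highest adjusted p 0.0746, under the block). Other named genes that lost their call under the block were *Cdk7*, *Rad9*, *Rbf*, *endos*, *bnk*, *kni*, *vas* and *png* (0.72, adjusted p = 0.0613). The libraries share only a replicate number: deviations of same-numbered libraries correlated at 0.074, −0.063 and −0.41 (DomKD with Ctrl) and −0.19, −0.024 and 0.047 (Ctrl embryos with eggs).

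Against eggs, the test called 6489 genes (5698 to 8096 over alternatives) and 7 to 9 regulators, the original 7 among them each time. Signs turned, with the cause not tested, for DomKD against Ctrl in *stg* (0.17 with non-maternal factors, 0.011 under the block, 0.0068 without DomKD replicate 1, 0.11 without Ctrl replicate 2), *CycB* (0.17, 0.00091, 0.0022 and 0.041 under the same settings), *CycB3* (0.0035) and *fzr* (0.090) with non-maternal factors, *twe* with Ctrl replicate 2 only (−0.0061) and *zld* without DomKD replicate 3 (−0.0037). Against eggs they turned under upper-quartile factors, which moved the median of all genes to 0.33, in *CycA* (0.046), *CycB* (0.093) and *CycE* (0.16), in *CycB* without Ctrl replicate 4 (0.00043), and in *CycE* with a mean of 100 counts (0.046) and without Ctrl replicate 3 (0.064). With 1 library left out at a time, DomKD against Ctrl embryos gave −0.14 to 0.11 for *stg*, −0.15 to 0.041 for *CycB* and −0.0037 to 0.34 for *zld*, and Ctrl embryos against eggs gave −0.18 to 0.00043 for *CycB* and −0.095 to 0.064 for *CycE*. None of these genes had passed in the same comparison at the settings reported. *CycE* against eggs did pass under upper-quartile factors (0.16, adjusted p = 0.0401). Of 1081 values of 48 genes, 974 kept direction and side of the threshold, 14 gained a call, 75 lost it and 18 turned. That *CycE* value was counted among those that turned, not among those that gained a call.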

Other observations

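The early zygotic markers that passed in DomKD against Ctrl embryos were *zen*, a dorsal patterning gene (log2 fold change 0.73, adjusted p = 0.00198), *bnk*, a gene of cellularization (0.55, adjusted p = 0.0383), and *kni*, a gap gene (0.53, adjusted p = 0.0352). *zen* had 396 to 505 TPM in DomKD embryos and 255 to 309 TPM in Ctrl embryos, with no overlap, while *bnk* and *kni* overlapped. In eggs *bnk*, *kni*, *nullo* and *sc* were at 0 in all 4 libraries.

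Of 7 pole cell markers, 1 was higher and 1 lower in DomKD against Ctrl embryos: *vas*, a germ plasm helicase that overlaps *solo* over 563 nt on the same strand (0.51, adjusted p = 0.0433), which lost its call without Ctrl replicate 2, 3 or 4 or DomKD replicate 2 or 4 (0.0581 to 0.144), and *tud*, a germ plasm scaffold (−0.58, adjusted p = 0.00827). In Ctrl embryos against eggs, 6 of the 7 were lower, with the largest falls in *vas* (−3.71), *nanos* (−2.99) and *pgc* (−2.87), and 1 was higher (*aub*, 0.75, adjusted p = 5.88e-05, named after its value was seen). Of 6 cleared maternal transcripts, *exu* was lower in DomKD than in Ctrl embryos (−0.70, adjusted p = 0.00460), and *exu* (−5.29), *Hsp83* (−3.64) and *swa* (−0.67) were lower in Ctrl embryos than in eggs. Of the other 3, named after their values were seen, *stau* was higher in Ctrl embryos (0.56, adjusted p = 5.35e-05), and *smg* (−0.062, adjusted p = 0.378) and *bcd* (0.17, adjusted p = 0.200) did not pass. With library scaling from the genes not maternally deposited, *tud* (−0.35, adjusted p = 0.174) and *exu* (−0.48, adjusted p = 0.110) lost their calls in DomKD against Ctrl embryos. With library size alone *vas* lost its call in that comparison (0.45, adjusted p = 0.0769).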
